A study of Mus musculus with 18 samples.

Results

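The 10 genes described here are the Cyp3a cytochrome P450 genes and the nuclear receptor genes Nr1i2 and Nr1i3 in mouse liver. They were taken by gene name from a table of read counts for 32285 genes in 18 livers, and comprise 8 Cyp3a genes and 2 receptors. Space pups were 10-week-old offspring descended from germline stem (GS) cells kept frozen for 6 months aboard the International Space Station (ISS), Ground pups came from GS cells frozen on Earth for the same time, and BDF1 mice were wild-type controls born after natural mating, whose age the labels do not give. GS cells are cultured spermatogonial stem cells, here from a C57BL/6 EGFP transgenic line bred into the DBA/2 background per the study's methods. They were thawed and injected into seminiferous tubules of infertile W mice, and these recipients sired the pups naturally with C57BL/6 females. All 3 groups are labelled B6D2F1 and wild-type, with 6 animals each. Fewer recipients became fertile in each pup group than pups were sampled, per the study's text, so some pups of a group share a sire. Which ones do, and which shared a litter, is not given in the labels, so the tests measure the spread between these animals only.

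Members of the CYP3A subfamily are haem enzymes of the endoplasmic reticulum that oxidise drugs, steroids and bile acids, and they draw electrons from the reductase encoded by Por. Cyp3a11 is the main hepatic member in adult mice. Cyp3a41a, Cyp3a41b and Cyp3a44 are known as copies expressed mainly in female liver, and Cyp3a16 as a copy of the fetal and young liver. Nr1i2 encodes the pregnane X receptor (PXR), which is activated by foreign compounds and steroids. Nr1i3 encodes the constitutive androstane receptor (CAR). Both bind DNA together with retinoid X receptors and induce Cyp3a and Cyp2b genes.

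In mm10 (GENCODE M21), 7 of the Cyp3a genes lie together on chromosome 5. Cyp3a16 starts this stretch (chr5:145436309-145469723), followed by Cyp3a41b (chr5:145558664-145584730), Cyp3a41a (chr5:145694049-145720136), Cyp3a44 (chr5:145773983-145805874), Cyp3a11 (chr5:145854426-145879964), Cyp3a25 (chr5:145977194-146009618) and Cyp3a59 (chr5:146079257-146113287). Cyp3a13 lies apart on the same chromosome (chr5:137892932-137921619). Nr1i2 is on chromosome 16 (chr16:38248323-38294824) and Nr1i3 on chromosome 1 (chr1:171213970-171220701), where it overlaps Tomm40l on the opposite strand over 4691 bases. The Cyp3a41a and Cyp3a41b transcripts were identical at 99.9% of aligned bases, and only 9.18% and 11.8% of their windows of 100 bases were unique to one gene. The division of reads between these copies is therefore uncertain. The corresponding unique shares were 94.6% for Cyp3a44, 94% for Cyp3a25, 94.4% for Cyp3a59 and at least 99.7% for the other 5 genes.

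The stretch of 120 bases from -180 to -61 relative to the start site is shown for 6 members, because the copies that moved together in the counts below sit beside copies that did not. The sequences are from RefSeq (GRCm38.p6, the mm10 assembly), in which all 10 members were matched, and read 5′ to 3′ on the gene's strand. Capitals mark exact matches, on either strand, to the nuclear receptor half-sites AGGTCA and AGTTCA and to CAAAGTCCA, a site of the kind bound by HNF4A. The 6 windows follow, at chr5:145879915-145880034, chr5:145469784-145469903, chr5:145720197-145720316, chr5:145805935-145806054 and chr5:146009679-146009798 on the minus strand and chr5:146079078-146079197 on the plus strand.
Cyp3a11: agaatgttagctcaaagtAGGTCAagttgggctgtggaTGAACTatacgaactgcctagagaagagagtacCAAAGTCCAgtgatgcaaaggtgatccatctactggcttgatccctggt
Cyp3a16: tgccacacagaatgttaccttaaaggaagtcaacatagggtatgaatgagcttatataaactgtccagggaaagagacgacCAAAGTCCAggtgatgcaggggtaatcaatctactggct
Cyp3a41a: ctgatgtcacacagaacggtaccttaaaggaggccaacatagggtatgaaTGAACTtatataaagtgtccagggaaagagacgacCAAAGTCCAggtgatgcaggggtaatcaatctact
Cyp3a44: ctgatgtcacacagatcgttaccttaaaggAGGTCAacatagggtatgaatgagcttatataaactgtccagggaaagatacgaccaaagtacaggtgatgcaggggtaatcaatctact
Cyp3a25: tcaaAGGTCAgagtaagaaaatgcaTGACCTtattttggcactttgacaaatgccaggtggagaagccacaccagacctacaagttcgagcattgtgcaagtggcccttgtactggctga
Cyp3a59: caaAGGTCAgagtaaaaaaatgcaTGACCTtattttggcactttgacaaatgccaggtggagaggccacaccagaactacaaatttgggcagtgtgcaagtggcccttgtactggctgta

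CAAAGTCCA was present once in the promoters of Cyp3a11 (from -109), Cyp3a16 (-99), Cyp3a41a (-95) and Cyp3a41b (-95), and the windows of the Cyp3a41 copies were identical. In Cyp3a44 the aligned site at -95 differs by C7A, counted from the first base of CAAAGTCCA. This element occurs in 0.477% of 27025 promoters (250 bases before to 50 bases after the start site), and in 8.53% when 1 mismatch is allowed. AGGTCA occurs in 16% and AGTTCA in 14% of promoters, so these half-sites are common. Cyp3a25 and Cyp3a59, whose transcripts share 97% of aligned bases, each carry AGGTCA at 2 places. No member promoter held TTCNNNGAA, the letters of a STAT5 site found in 8.47% of promoters, and no matches overlapped. A match is a description of letters and does not show that a factor binds there.

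Sequencing depth was 15407450 to 20562351 assigned reads per liver. The sources state 3 males and 3 females for each kind of pups without assigning sex to a library, and the study's text names fewer wild-type mice than the 6 BDF1 livers in the labels. Xist had 0 to 187 counts in replicates 1 to 3 and 12218 to 21557 in replicates 4 to 6 of every group, and 4 Y-linked genes summed to 1822 to 2482 and 0 to 26 counts. Groups were therefore compared within these sets of 3, and the sets are named by their replicate numbers. Some libraries stood apart. Alb took 17.6% to 24.1% of reads in replicates 4 to 6 of the pups and 4.47% to 8.03% elsewhere. Serpina6 took 2.18% to 3.43% in Space 4, Ground 5 and Ground 6 and at most 0.107% elsewhere, and haploid germ cell markers reached 46.3 CPM (read counts relative to library size, per 1e6 reads) in Space 6 and 4.75 in BDF1 3. All 6 hepatocyte markers were detected in every group (summed level, 59850 to 376200 CPM), and exocrine pancreas markers reached at most 3.62 CPM.

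Levels are given as CPM on library sizes scaled by trimmed mean of M-values (TMM). Cyp3a11 had the highest mean length-corrected level (TPM, which divides counts by transcript length) of the members in all 6 combinations of group and set. In replicates 1 to 3 its mean was 5106 ± 1401 TPM in BDF1, 4396 ± 616 in Ground pups and 3966 ± 724 in Space pups (SD, n = 3 each). Cyp3a25 came next with 925 ± 31.7, 812 ± 127 and 817 ± 57.0 TPM. In BDF1 the following levels were Cyp3a13 (128 ± 25.6 TPM), Nr1i3 (86.1 ± 18.0), Cyp3a59 (50.2 ± 6.08) and Nr1i2 (43.4 ± 2.60). The transcript length used for Nr1i3, 2980 bases, includes a retained stretch. A shorter transcript would give Nr1i3 a higher TPM, so its rank is uncertain in both sets. Cyp3a13 and Nr1i3 lay within their summed SDs, as did Cyp3a59 and Nr1i2. The order of these 4 was not the same in the pups, where Ground had Nr1i3 (107 ± 18.7), Cyp3a13 (90.1 ± 30.5), Nr1i2 (58.9 ± 3.33) and Cyp3a59 (28.2 ± 6.56), and Space had Nr1i2 (65.5 ± 7.18), Cyp3a13 (55.4 ± 4.98), Nr1i3 (55.0 ± 12.3) and Cyp3a59 (25.6 ± 2.87). In BDF1, Cyp3a44 (8.05 ± 2.36 TPM), Cyp3a16 (0.50 ± 0.169), Cyp3a41b (0.0359 ± 0.0312) and Cyp3a41a (0) were at the bottom, and the same 4 genes were lowest in both kinds of pups (at most 9.04 ± 1.45 TPM).

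**Figure D1:**
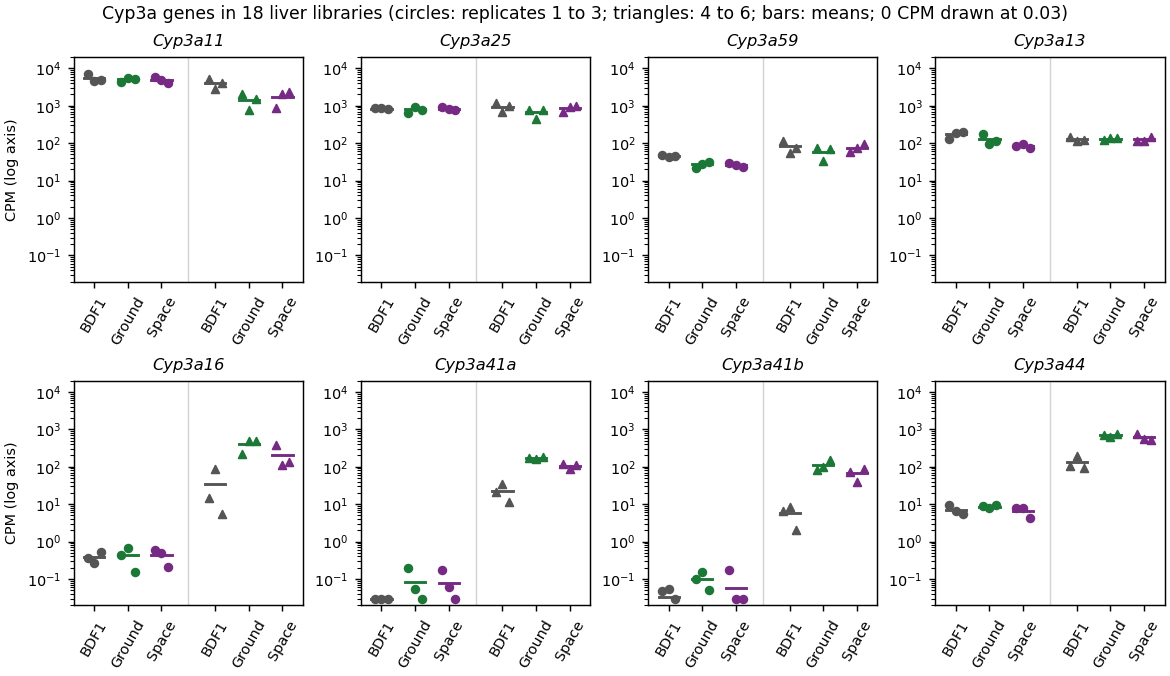
CPM of the 8 Cyp3a genes (log axis) in every library, with circles for replicates 1 to 3, triangles for replicates 4 to 6 and horizontal bars for means of 3 libraries; values of 0 are drawn at the bottom of the axis. In replicates 4 to 6, Cyp3a16, Cyp3a41a, Cyp3a41b and Cyp3a44 were higher in all 6 pups than in the 3 BDF1 livers, and Cyp3a11 was lower.

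The upper ranks differed in replicates 4 to 6. In BDF1, Cyp3a11 (3716 ± 1176 TPM) and Cyp3a25 (1006 ± 283) were again followed at a distance by Cyp3a44 (146 ± 71.3) and Nr1i3 (130 ± 16.4), which lay within their SDs of each other. In Space pups, Cyp3a11 (1208 ± 620 TPM), Cyp3a25 (677 ± 179) and Cyp3a44 (479 ± 29.8) were neighbours within their summed SDs. In Ground pups Cyp3a44 (546 ± 110 TPM) stood level with Cyp3a25 (526 ± 215), with Cyp3a11 at 996 ± 601, within the summed SDs of Cyp3a44, and Cyp3a16 at 346 ± 91.6. In Ground 5 Cyp3a44 was above Cyp3a11 (24.4% and 23.9% of summed Cyp3a TPM), and in Space 4 both held 25.5%. Cyp3a41a reached 130 ± 27.0 and Cyp3a41b 80.3 ± 15.0 TPM in Ground pups, against 79.1 ± 9.61 and 49.8 ± 19.4 in Space pups and 24.7 ± 14.1 and 6.18 ± 3.79 in BDF1. With the 2980-base length used, Nr1i3 stood between Cyp3a16 and Cyp3a41a in Ground pups (216 ± 91.3 TPM). In Space pups it was beside Cyp3a16 (194 ± 56.5 and 177 ± 100). Cyp3a13, Cyp3a59 and Nr1i2 were between 42.7 and 93.4 TPM in all 3 groups.

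How the copies differed between the replicate sets was asked first. Cyp3a16, Cyp3a41a, Cyp3a41b and Cyp3a44 were higher in replicates 4 to 6 than in 1 to 3 in all 3 groups (edgeR quasi-likelihood test with Benjamini-Hochberg adjustment over 13356 genes, here and below unless another tool is named). Markers moved between the sets as well. T and B cell markers had 0.43 to 1.69 CPM in replicates 1 to 3 and 2.12 to 4.74 in replicates 4 to 6 over all groups, and hepatocyte markers did not overlap between the sets in any group. In BDF1, pericentral markers had 5151 to 6419 and 7488 to 9838 CPM, periportal markers 9653 to 11300 and 13840 to 17050, and red blood cell markers 182 to 297 and 32.3 to 88.1. In Space pups, periportal markers were lower in replicates 4 to 6 (13960 to 14010 and 9254 to 12350 CPM), as were stellate cell markers (166 to 172 and 136 to 164), while Kupffer cell (61.2 to 83.1 and 119 to 160) and endothelial markers (49.6 to 53.9 and 55.8 to 71.6) were higher. In Ground pups stellate cell markers were higher (140 to 145 and 155 to 198 CPM) and bile duct markers lower (20.9 to 37.0 and 12.6 to 19.2). Their part in the set differences was not tested. In BDF1, 4 of 10 members passed, all higher, where 14.6% of all genes passed (7.29% higher, 7.33% lower). In Space pups 7 members passed, 6 higher and 1 lower, against 21.9% of all genes (11.6% higher, 10.4% lower). In Ground pups it was also 6 higher and 1 lower, against 18.3% (9.59% higher, 8.71% lower). With total-count scaling, which takes no account of the reads claimed by Alb, the Ground split was 5 higher and 3 lower, with Cyp3a25 and Nr1i2 added to the lower side and Cyp3a59 no longer passing. Of all 13356 genes, 606 were then higher and 5381 lower in Ground pups. The other Cyp3a gene in the table, Cyp3a57, had too few counts to be tested.

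Cyp3a44 gave the best measured of these differences. Replicates 1 to 3 had 9.32, 6.53 and 5.59 CPM in BDF1, 8.73, 7.75 and 9.43 in Ground pups and 7.94, 7.99 and 4.35 in Space pups. Replicates 4 to 6 had 103, 195 and 92.1 CPM in BDF1, 691, 637 and 731 in Ground pups and 740, 567 and 528 in Space pups. The sets did not overlap in any group, and the log2 difference was 4.18 ± 0.302 (SE) in BDF1, 6.31 ± 0.330 in Ground pups and 6.50 ± 0.334 in Space pups (adjusted p = 1.42e-07, 3.57e-09 and 3.61e-09).

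The other 3 copies had so few reads in replicates 1 to 3 that fitted folds are imprecise. Cyp3a41a had 0 counts in the 3 BDF1 livers of that set and 1467 in replicates 4 to 6, which is at least 459.5-fold higher against a floor of 3 counts over the group (the lower limit of the 95% counting interval is 373). Its sums were 4 and 4876 counts in Space pups and 5 and 8054 in Ground pups. For Cyp3a41b they were 2 and 365 in BDF1, a depth-scaled ratio of 171 with a 95% counting interval of 47.1 to 1421, 3 and 3079 in Space pups, and 6 and 5076 in Ground pups. The Cyp3a16 ratio was 95.6 in BDF1 (63.6 to 151), 452 in Space pups (298 to 721) and 926 in Ground pups (627 to 1432). These intervals cover counting error only. In BDF1 the fitted log2 difference of Cyp3a16, 6.48, ranged from 4.68 to 6.99 when 1 library was left out.

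**Figure D2:**
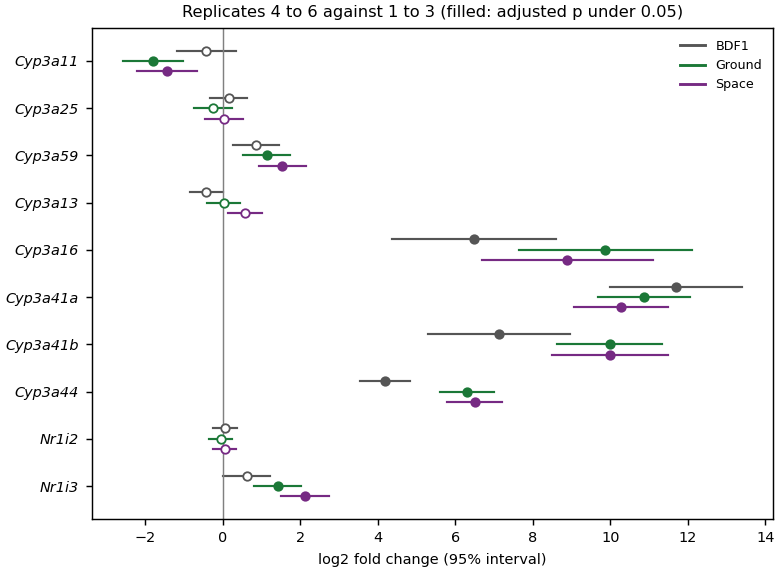
Log2 fold change of replicates 4 to 6 over 1 to 3 within each group, with 95% intervals; filled points passed the adjusted p threshold of 0.05. The 4 copies Cyp3a16, Cyp3a41a, Cyp3a41b and Cyp3a44 lie far to the right in all groups, and the fitted values of both Cyp3a41 copies and Cyp3a16 rest on few counts in replicates 1 to 3.

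Cyp3a11, Cyp3a59 and Nr1i3 also differed between the sets in the pups. The log2 change of Cyp3a11 from replicates 1 to 3 to replicates 4 to 6 was -1.45 ± 0.368 for Space pups (adjusted p = 0.010) and -1.80 ± 0.372 for Ground pups (adjusted p = 0.00275). With a replicate block the Space change did not pass (-1.42, adjusted p = 0.126). In BDF1 the change was -0.42 ± 0.361 (adjusted p = 0.478). Cyp3a59 was 2.89-fold higher in Space pups and 2.19-fold higher in Ground pups (adjusted p = 0.00136 and 0.0108), and 1.81-fold in BDF1 without passing (adjusted p = 0.0505). The BDF1 difference passed with DESeq2 (0.86, adjusted p = 0.0205), with limma voom (0.75, adjusted p = 0.0187) and without the 3 libraries high in Serpina6 (0.86, adjusted p = 0.0107). Nr1i3 was 4.34-fold and 2.66-fold higher (adjusted p = 9.83e-05 and 0.00258), against 1.53-fold in BDF1 (adjusted p = 0.164; without the 3 libraries high in Serpina6, 0.62, adjusted p = 0.0428). Cyp3a25, Cyp3a13 and Nr1i2 passed in no group with edgeR and TMM scaling over all 18 libraries and 13356 genes. Cyp3a13 was close to the threshold in Space pups and passed there without Ground 1 (0.57, adjusted p = 0.0222), without Ground 2 (0.57, adjusted p = 0.0320), with a filter at a mean of 1 CPM (0.58, adjusted p = 0.0496), with DESeq2 (0.57, adjusted p = 0.0329) and with limma voom (0.55, adjusted p = 0.0267). With limma voom it also passed in BDF1, in the other direction (-0.50, adjusted p = 0.0395). The Cyp3a59 call in Ground pups was lost without Ground 1 (0.99, adjusted p = 0.0557).

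The composition of the family therefore differed between livers. Cyp3a11 made up 78.4% to 85.6% of summed Cyp3a TPM in all 9 livers of replicates 1 to 3, 67.8% to 74.5% in BDF1 replicates 4 to 6, and 23.9% to 49.7% in the 6 pups of that set. Cyp3a16, Cyp3a41a, Cyp3a41b and Cyp3a44 together made up 0.111% to 0.218%, 2.44% to 9.67% and 21.8% to 55.2%. The family total was 4028 to 6737 TPM in BDF1 replicates 4 to 6 and 1946 to 3693 TPM in the pups, without overlap. In TMM-scaled CPM it was 3964 to 6848 and 2737 to 4419, and these ranges overlapped, so the separation of the totals depends on the scale. Shares are parts of a whole and were not tested.

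**Figure D3:**
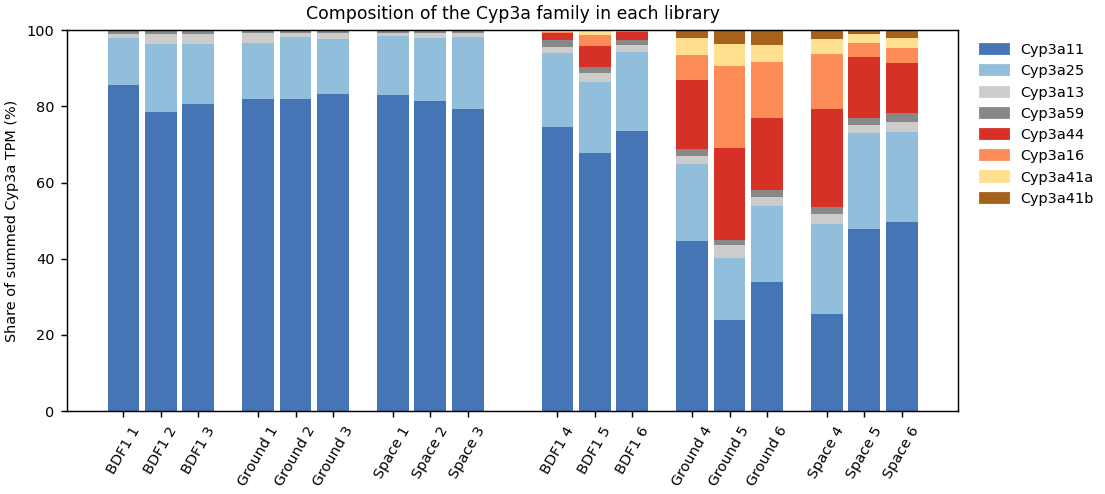
Share of summed Cyp3a TPM held by each gene in each of the 18 livers, in percent, as stacked bars. Cyp3a11 holds at least 78.4% in all replicates 1 to 3 and at most 49.7% in the pups of replicates 4 to 6.

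Within replicates 4 to 6, pups and BDF1 were then compared to ask how livers of GS cell offspring differ from wild-type livers. Of the 10 members, 7 passed between Space pups and BDF1 (6 higher, 1 lower) and 6 between Ground pups and BDF1 (5 higher, 1 lower). Of all genes, 11.9% passed in the first comparison (6.43% higher, 5.49% lower) and 15.2% in the second (7.86% higher, 7.35% lower). Without BDF1 5 the genes passing fell from 1592 to 642 and from 2031 to 1128. With total-count scaling the splits were 4 higher and 1 lower in Space pups and 5 higher and 3 lower in Ground pups. Of 13356 genes, 337 were then higher and 4641 lower in Space pups, and 402 higher and 5734 lower in Ground pups. Both comparisons use the same 3 BDF1 livers. In these bulk tissues fewer cells of a type and less RNA per cell cannot be told apart. The Alb share moved with these groups (17.6% to 24.1% against 6.72% to 8.03%), as did Mki67 (3.07 to 29.4 CPM in pups, 0 to 0.454 in BDF1) and summed pericentral hepatocyte markers (4719 to 6357 against 7488 to 9838 CPM). Summed periportal hepatocyte markers were also lower in the pups (6363 to 12350 against 13840 to 17050 CPM). Higher in all 6 pups were red blood cell markers (102 to 718 against 32.3 to 88.1 CPM), T and B cell markers (2.8 to 4.74 against 2.12 to 2.46) and the 6 hepatocyte markers, which include Alb (217400 to 376200 against 76250 to 97210). Bile duct markers were lower in Ground pups (12.6 to 19.2 CPM) than in BDF1 (21.99 to 24.96). Their part in the results was not tested.

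Both Cyp3a41 copies were higher in the pups. Cyp3a41a had 21.7, 35.6 and 11.7 CPM in BDF1, 174, 162 and 180 in Ground pups and 117, 89.5 and 109 in Space pups. Cyp3a41b had 6.65, 8.46 and 2.07 CPM in BDF1, 80.9, 97.4 and 153 in Ground pups and 72.2, 40.2 and 85.9 in Space pups. No pup overlapped a BDF1 liver for either copy.

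Cyp3a41a was 4.57-fold higher in Space pups (log2 2.19 ± 0.309, adjusted p = 0.0010) and 7.47-fold higher in Ground pups (2.90 ± 0.317, adjusted p = 0.000104). For Cyp3a41b the folds were 11.5 (3.52 ± 0.398, adjusted p = 0.000194) and 19.1 (4.26 ± 0.408, adjusted p = 1.82e-05). Because reads of the copies can be exchanged, their counts were also summed. The sum was higher by 2.58 (log2) in Space pups and 3.30 in Ground pups (adjusted p = 0.000412 and 5.35e-05). Cyp3a41b took 15.0% to 23.5% of the summed counts in BDF1 and 31.0% to 45.9% in the pups.

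Cyp3a44, with the values given above, was 4.70-fold higher in Space pups (log2 2.23 ± 0.271, adjusted p = 0.000242) and 5.27-fold higher in Ground pups (2.40 ± 0.272, adjusted p = 8.06e-05). The lowest pup had 528 CPM and the highest BDF1 liver 195 CPM. The calls of Cyp3a41a, Cyp3a41b and Cyp3a44 were kept in both comparisons when any 1 of the 18 libraries was left out. Without the 3 libraries high in Serpina6 their direction was kept in both comparisons. That fit leaves Ground 4 as the only Ground pup of the set and cannot test the Ground calls. Mouse Cyp3a16 varied more. It had 15.0, 86.3 and 5.44 CPM in BDF1, 220, 492 and 499 in Ground pups and 372, 114 and 136 in Space pups, again without overlap. The folds were 5.81 in Space pups (log2 2.54 ± 0.695, adjusted p = 0.0274) and 11.3 in Ground pups (3.50 ± 0.722, adjusted p = 0.00460). The Space call was lost without Space 4 (1.81, adjusted p = 0.119), BDF1 4 (2.17, adjusted p = 0.110) or BDF1 6 (2.03, adjusted p = 0.0503), without the 3 libraries high in Serpina6 (1.80, adjusted p = 0.0901), and with only the 9 libraries of the set (2.53, adjusted p = 0.126). The Ground value without the libraries high in Serpina6, from Ground 4 alone, was 2.62. Without BDF1 5 the values were 4.33 in Space pups and 5.31 in Ground pups.

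Cyp3a11 went the other way. It had 5266, 2808 and 4019 CPM in BDF1, 2025, 747 and 1555 in Ground pups and 882, 2040 and 2357 in Space pups. All 6 pups were below the lowest BDF1 liver. The level was 2.29-fold lower in Space pups (log2 -1.20 ± 0.365, adjusted p = 0.0438) and 2.79-fold lower in Ground pups (-1.48 ± 0.368, adjusted p = 0.0130). The Space call lay close to the threshold and was lost when any of Space 1 to 5, Ground 1, Ground 3 or BDF1 2 to 6 was left out (adjusted p up to 0.168, log2 change -0.95 without BDF1 4 and -0.87 without Space 4). The Ground call was lost without BDF1 4 (-1.22, adjusted p = 0.0623). Without the 3 libraries high in Serpina6 the Ground value, from Ground 4 alone, was -0.99. Space pups without those libraries differed by -0.88 (adjusted p = 0.0431). Fitting only the 9 libraries of the set lost both calls (-1.20, adjusted p = 0.140, and -1.48, adjusted p = 0.0735).

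**Figure D4:**
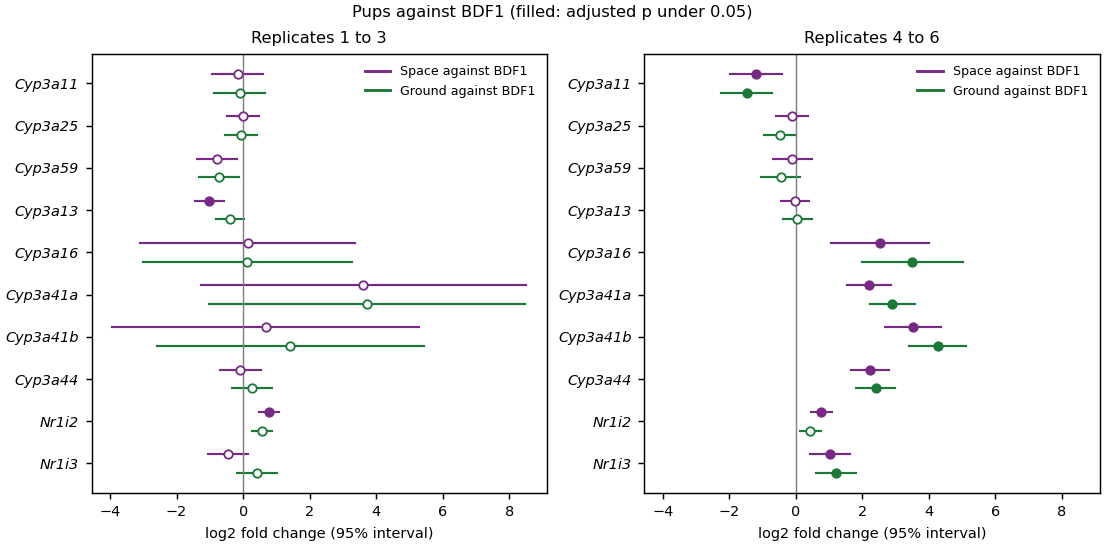
Log2 fold change of Space and Ground pups against BDF1 for each member within replicates 1 to 3 (left) and 4 to 6 (right), with 95% intervals; filled points passed the adjusted p threshold of 0.05. In replicates 4 to 6 the 4 copies are right of 0 and Cyp3a11 left of it in both kinds of pups; in replicates 1 to 3 the wide intervals of Cyp3a16 and both Cyp3a41 copies come from counts near 0.

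Cyp3a25, Cyp3a59 and Cyp3a13 did not pass within replicates 4 to 6. For Cyp3a25 the change was -0.12 in Space pups (95% interval -0.60 to 0.36) and -0.48 in Ground pups (-0.97 to 0.00070). For Cyp3a59 it was -0.10 (-0.69 to 0.48) and -0.45 (-1.05 to 0.14), with 56.3 to 117 CPM in BDF1 and 33.4 to 94.97 CPM in the pups. For Cyp3a13, which is also expressed in intestine, it was -0.02 (-0.45 to 0.40) and 0.05 (-0.38 to 0.47). Scaling by total counts instead of TMM turned the Ground values of Cyp3a25 and Cyp3a59 into calls (-0.93, adjusted p = 0.00880, and -0.90, adjusted p = 0.0321).

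Nr1i2, the PXR gene, was higher than BDF1 in Space pups of both sets, and its Ground differences lay close to the threshold. Nr1i2 in replicates 4 to 6 had 56.0, 45.2 and 55.9 CPM in BDF1, 65.5, 57.7 and 89.7 in Ground pups and 91.1, 87.2 and 89.0 in Space pups. Every pup was above every BDF1 liver. Space pups were 1.70-fold higher (log2 0.77 ± 0.145, adjusted p = 0.00387), and Ground pups 1.35-fold higher without passing (0.44 ± 0.145, adjusted p = 0.0505). In replicates 1 to 3 Nr1i2 had 48.6, 49.3 and 52.7 CPM in BDF1, 75.6, 81.6 and 64.5 in Ground pups and 76.6, 88.2 and 94.2 in Space pups, again without overlap. Space pups were 1.72-fold higher (0.78 ± 0.145, adjusted p = 0.00687) and Ground pups 1.47-fold (0.56 ± 0.145, adjusted p = 0.0578). Both Space calls were kept when any 1 library was left out. The Ground difference in replicates 4 to 6 passed with DESeq2 (0.44, adjusted p = 0.0253) and with limma voom (0.55, adjusted p = 0.0184), and did not pass with only the 9 libraries of the set (adjusted p = 0.131). With only the 9 libraries of replicates 1 to 3 the Ground difference passed as well (0.55, adjusted p = 0.0183). With total-count scaling the replicates 4 to 6 values fell to 0.37 (adjusted p = 0.0540) in Space pups and -0.05 in Ground pups, where the direction turned.

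Nr1i3 was higher in the pups of replicates 4 to 6. It had 196, 149 and 192 CPM in BDF1, 432, 227 and 590 in Ground pups and 302, 459 and 341 in Space pups, and no pup was within the BDF1 range. The folds were 2.05 in Space pups (log2 1.04 ± 0.286, adjusted p = 0.0279) and 2.33 in Ground pups (1.22 ± 0.287, adjusted p = 0.00994). The Space call was lost without Space 5 (0.85, adjusted p = 0.0982), BDF1 4 (1.11, adjusted p = 0.0642), BDF1 5 (0.92, adjusted p = 0.115) or BDF1 6 (1.09, adjusted p = 0.0508), and the Ground call without Ground 6 (0.88, adjusted p = 0.0559). With only the 9 libraries of the set the Space difference of 1.03 did not pass (adjusted p = 0.0898). With total-count scaling the values were 0.66 (adjusted p = 0.0838) and 0.74 (adjusted p = 0.0466). In replicates 1 to 3 Nr1i3 had 106, 149 and 95.7 CPM in BDF1, 128, 194 and 148 in Ground pups and 105, 81.6 and 67.5 in Space pups. These ranges overlapped BDF1, and neither difference passed (Space -0.47, adjusted p = 0.397, and Ground 0.42, adjusted p = 0.502). Nr1i3 reads could not be separated by strand from those of Tomm40l, since the strand setting of the counting is not given in the sources used here.

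**Figure D5:**
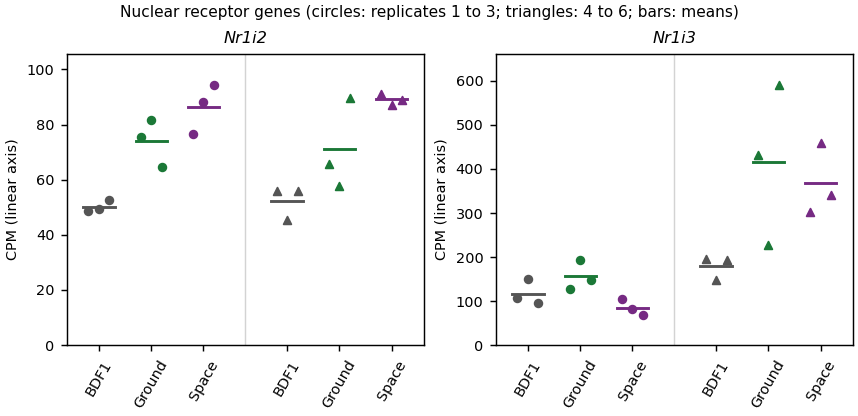
CPM of Nr1i2 and Nr1i3 in every library by group, with circles for replicates 1 to 3, triangles for replicates 4 to 6 and bars for means of 3 libraries. Nr1i2 is above BDF1 in all pups of both sets (57.7 to 94.2 against 45.2 to 56.0 CPM), and Nr1i3 is above BDF1 in all pups of replicates 4 to 6 and overlaps BDF1 in replicates 1 to 3.

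Within replicates 1 to 3, 2 members passed between Space pups and BDF1, where 4.64% of all genes passed (2.85% higher, 1.8% lower), and 0 between Ground pups and BDF1, where 1.92% passed. Without BDF1 2 the genes passing fell from 620 to 201 and from 257 to 35. The first were Nr1i2, given above, and Cyp3a13. Marker sums also separated Space pups from BDF1 in this set, with higher stellate cell (166 to 172 against 103 to 122 CPM), hepatocyte (89470 to 91040 against 59850 to 72880) and periportal markers (13960 to 14010 against 9653 to 11300), and lower endothelial (49.6 to 53.9 against 66.7 to 78.8) and T and B cell markers (0.43 to 0.942 against 1.10 to 1.31). In Ground pups of this set, stellate cell (140 to 145 CPM) and hepatocyte markers (73240 to 88060) were also above BDF1. The part of these markers in the calls of this set was not tested. For the Ground comparison 2128 genes had an unadjusted p under 0.05, Nr1i2 passed with DESeq2 (0.56, adjusted p = 0.00893), and Nr1i2 and Cyp3a59 passed with limma voom. Cyp3a13 had 131, 182 and 201 CPM in BDF1, 178, 95.2 and 117 in Ground pups and 84.6, 94.2 and 75.4 in Space pups. All Space pups were below the other groups. Space pups were 2.02-fold lower than BDF1 (log2 -1.02 ± 0.204, adjusted p = 0.0106), and the call was lost without Space 3 (-0.94, adjusted p = 0.0598), without BDF1 3 (-0.88, adjusted p = 0.0583) and without the 2 libraries with germ cell counts (-0.89, adjusted p = 0.0567).

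Cyp3a59 in the same set had 49.7, 41.6 and 44.3 CPM in BDF1, 21.9, 27.9 and 32.2 in Ground pups and 29.5, 25.7 and 23.8 in Space pups. No pup overlapped a BDF1 liver, yet the differences of -0.78 and -0.73 did not pass (adjusted p = 0.135 and 0.215). When only the 9 libraries of the set were fitted they passed (-0.79, adjusted p = 0.00781, and -0.73, adjusted p = 0.0167). Cyp3a11 had 4451 to 6935 CPM in BDF1 and 3939 to 5711 in the pups, and its changes were -0.17 (95% interval -0.93 to 0.59) and -0.10 (-0.86 to 0.66). Cyp3a25 had 656 to 949 CPM over the 9 livers, with changes of 0.01 and -0.08. Cyp3a44 stayed between 4.35 and 9.43 CPM in all 9 livers, with changes of -0.09 (-0.70 to 0.52) and 0.27 (-0.33 to 0.87). Both Cyp3a41 copies and Cyp3a16 were at or near the floor of counting in all 3 groups, so no fold is given.

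Whether cryopreservation in space made a difference was asked by comparing Space with Ground pups. Of the 10 members, 0 passed in replicates 1 to 3 and 0 in replicates 4 to 6 with edgeR. Of all genes 0.00749% (1 gene, 1292 with an unadjusted p under 0.05) and 0.0225% (3 genes, 1852 with an unadjusted p under 0.05) passed. These counts moved with single libraries and with the tool. In replicates 1 to 3 there were 0 without Space 2, 84 without Ground 2 and 483 with limma voom, and in replicates 4 to 6 there were 0 without Space 5 and with limma voom, 75 without Space 4 and 119 with DESeq2. With DESeq2 0 members passed in both sets, and with limma voom 1 in replicates 1 to 3, Cyp3a13 (-0.77, adjusted p = 0.0257). The intervals leave room for differences in several members. In replicates 1 to 3 Nr1i3 differed by -0.89 (95% interval -1.49 to -0.28, adjusted p = 0.350) and Cyp3a13 by -0.62 (-1.04 to -0.19, adjusted p = 0.357). In replicates 4 to 6 Cyp3a41a differed by -0.71 (-1.34 to -0.08, adjusted p = 0.309), Cyp3a41b by -0.74 (-1.48 to 0.00063, adjusted p = 0.360) and Nr1i2 by 0.33 (0.02 to 0.63, adjusted p = 0.325). All 3 Ground pups were above all 3 Space pups for Cyp3a41a (162 to 180 against 89.5 to 117 CPM). In replicates 1 to 3 this also held for Nr1i3 (128 to 194 against 67.5 to 105) and Cyp3a13 (95.2 to 178 against 75.4 to 94.2). For Cyp3a11 the differences were -0.07 (-0.83 to 0.69) and 0.29 (-0.48 to 1.05), and for Cyp3a44 -0.36 (-0.96 to 0.25) and -0.17 (-0.71 to 0.38). Marker sums also separated Space from Ground pups. In replicates 1 to 3 Space pups had higher stellate cell, periportal and hepatocyte markers and lower endothelial markers. In replicates 4 to 6 they had lower endothelial (55.8 to 71.6 against 84.55 to 105 CPM) and higher bile duct markers (22.2 to 23.6 against 12.6 to 19.2). Their part was not tested.

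Whether the difference from BDF1 itself differed between the replicate sets was tested as an interaction. Cyp3a44 passed, at 2.32 ± 0.391 on the log2 scale for Space pups (adjusted p = 0.00426) and 2.13 ± 0.387 for Ground pups (adjusted p = 0.00940). Cyp3a16 did not pass, at 2.41 (adjusted p = 0.49) and 3.38 (adjusted p = 0.332). Neither Cyp3a41 copy passed, and all 3 of these genes had few counts in replicates 1 to 3. Of all genes 3.19% and 2.74% passed. Nr1i3 reached 1.50 in Space pups (adjusted p = 0.0519), and passed with DESeq2 (adjusted p = 0.00648), with edgeR without a filter on low counts (1.49, adjusted p = 0.0214) and without the 3 libraries high in Serpina6 (1.63, adjusted p = 0.0058). It reached 0.80 in Ground pups (adjusted p = 0.324). Cyp3a13 reached 0.99 (adjusted p = 0.0664; with DESeq2, adjusted p = 0.0210) and 0.45 (adjusted p = 0.459). Cyp3a11 reached -1.02 (adjusted p = 0.291) and -1.38 (adjusted p = 0.166), so its lower level in the pups of replicates 4 to 6 was not shown to be particular to that set. For Nr1i2 the interactions were -0.02 (95% interval -0.45 to 0.42) and -0.12 (-0.55 to 0.31). For Space against Ground pups 0 members and 0% of genes passed (1038 genes with an unadjusted p under 0.05; 0 members with DESeq2 and 0 with limma voom). Over all genes 30 passed with DESeq2 and 22 without Space 4.

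The partners and coregulators of PXR and CAR were a list of 24 genes. Between pups and BDF1 in replicates 4 to 6, 2 passed in each comparison (8.33%, below the 11.9% and 15.2% of all genes). Foxa3, a hepatocyte forkhead factor, was higher in Space pups (71.5 ± 11.8 CPM) and Ground pups (76.8 ± 26.9) than in BDF1 (22.8 ± 0.328), by 1.64 and 1.75 on the log2 scale (adjusted p = 0.000559 and 0.000237). Nr0b2, the corepressor SHP, was lower in Ground pups (9.51 ± 1.61 CPM) than in BDF1 (55.6 ± 8.75) by -2.55 (adjusted p = 8.06e-05) and differed between Space and Ground pups (1.87, adjusted p = 0.0279). That last call was lost without any of Space 5, Space 6, Ground 1, Ground 5, Ground 6, BDF1 3 or BDF1 5 (adjusted p up to 0.171), with limma voom (adjusted p = 0.0760), with a replicate block (0.111) and with only the 9 libraries of the set (0.416). Ncoa3, a coactivator, was lower in Space pups (-0.61, adjusted p = 0.0251). With total-count scaling 1 passed as higher and 12 as lower in each comparison. Of 13356 genes, 337 were then higher and 4641 lower in Space pups, and 402 higher and 5734 lower in Ground pups. The partner receptor Rxra had 389 ± 46.0 CPM in BDF1, 330 ± 6.70 in Ground pups and 279 ± 33.3 in Space pups and did not pass. Hnf4a did not pass either (489 ± 22.1, 620 ± 27.5 and 595 ± 56.9 CPM).

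For replicates 1 to 3, 1 partner was higher and 1 lower in Space pups, and 2 were higher in Ground pups (8.33% of the list in each comparison, against 4.64% and 1.92% of all genes). Cebpb, a CCAAT-binding factor, had 60.7 ± 11.5 CPM in BDF1, 159 ± 56.5 in Ground pups and 163 ± 9.25 in Space pups, with log2 changes of 1.39 (adjusted p = 0.0232) and 1.42 (adjusted p = 0.0120). Stat5a, a transcription factor of growth hormone signalling, was the lower gene in Space pups (-0.95, adjusted p = 0.00241). Between the sets, 7 of 24 passed in BDF1, 7 in Space pups and 6 in Ground pups (29.2%, 29.2% and 25%, against 14.6%, 21.9% and 18.3% of all genes). Cux2, a repressor known from female liver, had at most 0.878 CPM in any liver of replicates 1 to 3 and 8.04 to 111 CPM in replicates 4 to 6.

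Among the 13 genes of electron supply and haem synthesis, 1 passed in Space pups and 2 in Ground pups in replicates 4 to 6 (7.69% and 15.4%, against 11.9% and 15.2% of all genes). Cyb5r3, cytochrome b5 reductase, was higher in both (0.79 and 0.74, adjusted p = 0.0265 and 0.0295). Por, the reductase that serves all microsomal P450 enzymes, was lower in Ground pups (327 ± 62.4 CPM) than in BDF1 (451 ± 17.7), by -0.46 (adjusted p = 0.0478), and had 356 ± 35.5 CPM in Space pups. With total-count scaling 0 passed as higher and 6 as lower in Space pups, and 0 and 8 in Ground pups, so the higher call of Cyb5r3 depends on the scaling. Of 13356 genes, 337 were then higher and 4641 lower in Space pups, and 402 higher and 5734 lower in Ground pups. Against BDF1 in replicates 1 to 3, 0 of the 13 passed with edgeR (5 in Space and 4 in Ground pups at an unadjusted p under 0.05), with DESeq2 1 and 0, and with limma voom 4 and 1.

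Other genes known as PXR or CAR targets were a list of 43. In replicates 4 to 6, 5 passed as higher and 6 as lower in Space pups, and 3 as higher and 14 as lower in Ground pups (25.6% and 39.5%). Of all genes 11.9% passed in the first comparison (6.43% higher, 5.49% lower) and 15.2% in the second (7.86% and 7.35%). The list medians were -0.39 and -0.46 on the log2 scale, where the medians of all genes were 0.01 and 0.01. Gadd45b, a stress-response gene, rose in both (2.86 and 2.68, adjusted p = 0.00407 and 0.00427), as did Aldh1a7, an aldehyde dehydrogenase (2.25 and 2.58, adjusted p = 0.0172 and 0.00663). The glucuronosyltransferase Ugt1a9 was lower in Space pups (-1.45, adjusted p = 0.00230), and Cyp2b13 was lower in Ground pups (-1.71, adjusted p = 0.0184; 64.0 ± 4.98 against 210 ± 34.4 CPM). Cyp2b10, the usual marker of CAR activity, had 109 to 177 CPM in BDF1, 40.4 to 142 in Ground pups and 77.6 to 370 in Space pups, and these ranges overlapped. Without the 3 libraries high in Serpina6 the list medians were -0.31 in Space pups and -0.16 in Ground pups, the latter from Ground 4 alone. With total-count scaling the list counts were 4 higher and 20 lower in Space pups, and 3 higher and 25 lower in Ground pups. Of 13356 genes, 337 were then higher and 4641 lower, and 402 higher and 5734 lower. Alas1 and Por belong to this list and to the preceding one.

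Among the 43 targets, 3 were higher in Space pups of replicates 1 to 3 and 0 lower. Thrsp, a lipogenic gene, had 47.0 ± 32.9 CPM in BDF1 and 987 ± 230 in Space pups (log2 change 4.39, adjusted p = 0.000458). In Ground pups 1 was higher and 1 lower, with Thrsp (321 ± 120 CPM) the higher gene. The list shares were 6.98% and 4.65%, against 4.64% and 1.92% of all genes.

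Since several copies are known as female-patterned, lists of 11 genes known to be higher in female and 11 known to be higher in male mouse liver were counted as well. Between the sets, 9 of 11 female-list genes passed as higher in BDF1 and 11 of 11 in both kinds of pups, and 11 of 11 male-list genes passed as lower in each group. Of all genes, 7.29% in BDF1, 11.6% in Space pups and 9.59% in Ground pups passed as higher, and 7.33%, 10.4% and 8.71% as lower. Against BDF1 within replicates 4 to 6, 0 female-list genes passed in Space pups with edgeR (4 at an unadjusted p under 0.05; 0 passed with DESeq2, and 2 as higher and 1 as lower with limma voom), and 2 were higher and 1 lower in Ground pups. Prlr, the prolactin receptor, and Sult2a1, a sulfotransferase, were the higher genes (2.75 and 2.60 on the log2 scale, adjusted p = 0.0233 and 0.0119), and Cyp2b13 the lower. Of the male-list genes 2 were lower in Space pups and 4 in Ground pups, among them Elovl3, a fatty acid elongase (-2.35 and -4.04, adjusted p = 0.00208 and 8.06e-05). The shares of all genes passing in these comparisons were 11.9% and 15.2%. With total-count scaling 9 male-list genes were lower in Ground pups, where 5734 of all 13356 genes were lower. These lists and the Cyp3a members overlap in what they are known for, and they were chosen with earlier results of these data known.

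Genes whose level followed each member across the 18 livers were looked up after the mean of each replicate set had been removed from log2 CPM. For Cyp3a11 the closest was Hsd17b11 (Pearson's r = 0.938), followed by Slc38a4 (0.924) and Cyp2c50 (0.921). For Cyp3a44 they were Mfap1a (0.925) and Cyp17a1 (0.903), for Cyp3a41b Nid1 (0.911) and for Cyp3a41a Aqp4 (0.909). For Nr1i2 the closest was Eef1e1 (0.924) and for Nr1i3 Snrnp48 (0.897), while Cyp3a13 was closest to Icam1 (0.867) and Serpina3n (0.860), and Cyp3a59 to Retsat (0.839). The 18 points include the group differences described above, so these values describe the pattern over these livers and carry no test.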

How the data were processed

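RNA was from 18 livers (Illumina Stranded mRNA libraries, paired-end, per the labels). The study's general RNA-seq methods name another library kit, single reads and another cutadapt release, and the labels and processing notes of these libraries were followed here. The table deposited by the authors holds unnormalized read counts for each gene. Per the submitters' processing notes, the authors used bcl2fastq 2.20, cutadapt 4.6, HISAT2 2.2.1, HTSeq 2.0.2 and mm10. The strand and multi-mapping settings are not given in the sources used here, which matters for near-identical Cyp3a copies and for Nr1i3.

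Genes were kept with filterByExpr (13356 of 32285, including all 10 members; 10671 had no count) and tested with edgeR 4.0.16 (quasi-likelihood, TMM) in R 4.3.3, with 1 mean per group and replicate set (6 means, 12 comparisons), Benjamini-Hochberg adjustment over all tested genes and a threshold of 0.05. TPM used GENCODE M21 transcript lengths, which for Nr1i3 include a retained stretch. The design was chosen because groups mix both sexes by Xist and Y-linked counts. Replicates came from separate animals per the series' design text, and no pair of libraries within a group was a duplicate. Same-numbered livers of different groups were treated as unpaired. All members were tested in every comparison, and from each list the 3 largest called changes per direction could be named. Members and lists were chosen with earlier results of these data known. Alternatives were other scalings, filters, thresholds and designs, DESeq2 1.42.0, limma 3.58.1 voom, a replicate block, and leaving out libraries. Those omitting the libraries high in Serpina6 or with germ cell counts were chosen after seeing the data. Omitting the libraries high in Serpina6 leaves Ground 4 alone among Ground pups of replicates 4 to 6, and Space 5 and Space 6 among Space pups. With fitted models, n = 3 per group and set limits the precision. The fit was also run on counts simulated from its own dispersions, without set differences or outlying livers. That run does not show how the fit behaves where these are present.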

Additional observations from a re-analysis of the deposited data

Results flagged for a closer look

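Of 30 groups of 6 livers checked for a library far from the others (10 members in 3 groups), 2 stood out. The usual rate of about 1.5 (1 in 20) assumes livers of 1 kind. Each group here held both replicate sets, so that rate does not apply. Cyp3a16 was highest in Space 4, at 372 CPM with the nearest Space pup at 136 CPM, a gap of 0.634 of the range. Cyp3a16 was also highest in BDF1 5, at 86.3 CPM with the nearest BDF1 liver at 15.0 CPM, a gap of 0.829 of the range. Both groups hold livers of both replicate sets, and the value in each case is the highest of replicates 4 to 6.

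The difference of Cyp3a44 from BDF1 differed between the replicate sets by the interaction test in edgeR, by 2.32 on the log2 scale in Space pups (adjusted p = 0.00426) and by 2.13 in Ground pups (adjusted p = 0.00940). The 3 pups of each kind in replicates 4 to 6 were above all BDF1 livers, while in replicates 1 to 3 the ranges overlapped. The BDF1 livers are shared by both interactions.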

How the results depend on the processing

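The 35 member calls kept their direction under all 1105 alternatives, and 1042 of these kept the call. Many of these alternatives could not change a direction. The other thresholds reuse the main fit, and for most calls most left-out libraries lie outside the livers compared. Of 2699 alternatives, 75 gave an otherwise uncalled member a call, and 129 changed its sign without a call. The number of members called was 1 (main 0) for Ground against BDF1 in replicates 1 to 3 with DESeq2 and with a threshold of 0.1. It was 2 with limma voom and with only the 9 libraries of the set. For Space against BDF1 in replicates 4 to 6 (main 7) it was 4 at a threshold of 0.01 and with only the 9 libraries of the set. For Space against BDF1 in replicates 1 to 3 (main 2) it was 1 at a threshold of 0.01 and without the 2 libraries with germ cell counts. There Cyp3a59 was added with only the 9 libraries of the set (adjusted p = 0.00781) and with limma voom (adjusted p = 0.0219). The designs with group alone and group plus set fit the same difference for both replicate sets, so their counts belong to neither set. These counts were 1 and 5 for Ground against BDF1, and 1 and 3 for Space against BDF1. The number of members called was 1 for Space against Ground in replicates 1 to 3 with limma voom (main 0). For the set difference in Space against BDF1 (main 1) it was 3 with DESeq2, limma voom and a threshold of 0.1, and 2 with no filter, a mean of at least 1 CPM and without the 3 libraries high in Serpina6. Leaving out each library in turn gave 1 to 2 and 4 to 7 members for Space against BDF1 in replicates 1 to 3 and 4 to 6, 0 to 1 and 5 to 7 for Ground against BDF1, 4 to 5, 7 to 8 and 6 to 7 for the sets within BDF1, Space and Ground, 1 to 3 and 1 to 2 for the set differences of Space and Ground from BDF1, and 0 to 0 for Space against Ground. Same-numbered livers did not deviate together (r from -0.601 to 0.251, median -0.04, over 0.1 in 3 of 18 pairs). With a replicate block 6 members were called for Space against BDF1 in replicates 4 to 6 and 6 between the sets in Space, losing Cyp3a11 (adjusted p = 0.102 and 0.126), and no other call was lost. Over all genes, the block gave 939 calls for Space against BDF1 in replicates 4 to 6, where 1592 were called without it. Total-count scaling moved the median of all genes by -0.389 in Space and -0.463 in Ground against BDF1 in replicates 4 to 6, with 337 higher and 4641 lower, and 402 higher and 5734 lower, where TMM gave 859 and 733, and 1050 and 981. The splits also moved between the sets in Space (747 and 3629, TMM 1545 and 1384) and in Ground (606 and 5381, TMM 1281 and 1163), for Space against BDF1 in replicates 1 to 3 (169 and 256, TMM 380 and 240), and for the set differences of Space (100 and 439, TMM 237 and 189) and Ground (111 and 1390, TMM 179 and 187) from BDF1. Over all alternatives that keep every library or omit the named ones, genes called ranged from 183 to 2369 for Space against BDF1 in replicates 1 to 3 (main 620), 45 to 1479 for Ground (main 257), 490 to 4978 and 471 to 6136 in replicates 4 to 6 (main 1592 and 2031), 0 to 483 and 0 to 119 for Space against Ground (main 1 and 3), and 544 to 3755, 1092 to 4376 and 995 to 5987 between the sets in BDF1, Space and Ground (main 1952, 2929 and 2444). For the set differences they ranged from 0 to 30 for Space against Ground (main 0), 197 to 1515 for Space against BDF1 (main 426) and 113 to 1501 for Ground against BDF1 (main 366). The bounds 1479, 490 and 471 came from group plus set and group alone, which fit both replicate sets together. Leaving out each library gave 201 to 781 and 35 to 387 genes for Space and Ground against BDF1 in replicates 1 to 3, 642 to 1936 and 1128 to 2403 in replicates 4 to 6, 1074 to 2206, 1866 to 3177 and 1727 to 2723 between the sets in BDF1, Space and Ground, and 0 to 22, 221 to 612 and 132 to 760 for those set differences. The fewest came without BDF1 2 in replicates 1 to 3, BDF1 5 in replicates 4 to 6 and between the BDF1 sets, Space 1 and Ground 1 between the pup sets, and BDF1 3 and BDF1 6 for the set differences from BDF1. The cause was not tested. Depth limits Cyp3a16 and both Cyp3a41 copies in replicates 1 to 3.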
